A study of Mus musculus with 598 samples.

Results

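The 40 genes described here are transcripts whose level or function is tied to a phase of the cell division cycle. They were chosen by symbol, as 15 genes of DNA synthesis (S phase), 5 cyclins of the G1 phase and of the step from G1 into S phase, and 20 genes of the G2 phase and of mitosis (G2/M). All 40 were found among the 40912 genes of the count table. Cells sorted as Mesp1-GFP+ from gastrulating mouse embryos were sequenced with 1 library per cell. Of 598 cells, 28.8% were wild type at E6.75 (embryonic day), 57.02% were wild type at E7.25, and the other 85 were knockout cells at E6.75. The labels name no targeted gene, no strain, embryo, litter or pool, and describe the knockout and wild type cells alike as carrying the GFP reporter of Mesp1, a transcription factor of the nascent mesoderm. The preparation text attached to every sample speaks of bone marrow cells of adult C57BL/6 mice, which does not match the embryonic stage that the same labels give.

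A dividing cell copies its DNA in S phase and separates the copies in mitosis, with the gap phases G1 and G2 between. Cyclins are the regulatory subunits of the cyclin-dependent kinases that drive each step: D cyclins act in G1, E cyclins at entry into S phase, cyclin A through S phase and G2, and B cyclins at mitosis. E2F factors are known to drive many genes of DNA synthesis, and the DREAM and B-Myb-MuvB complexes many mitotic genes through elements named CHR. Cells of the mouse epiblast and primitive streak are known to divide fast, with short gap phases.

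The promoters below are shown because S phase and G2/M genes varied in opposite directions across the cells, as described further on. RefSeq (GRCm38.p6, the assembly that mm10 names) held a promoter for 32 of the 40 members. Mcm4, Gins2, Ccnd1, Ccnd2, Ccne2, Ccna2, Aurkb and Tpx2 had no entry. The 250 bases before each RefSeq transcription start were searched on both strands for TTNGCGC, the core of an E2F site, for TTTGAA, a CHR, and for CCAAT, the box bound by NF-Y. The first 2 sequences are those of the S phase members with an E2F core, which is in capitals (GCGCNAA where it lies on the other strand), and overlapping matches on the 2 strands run together. Mcm5 and Mcm6 encode subunits of the replicative helicase.
Mcm5, chr8:75109259-75109508, plus strand: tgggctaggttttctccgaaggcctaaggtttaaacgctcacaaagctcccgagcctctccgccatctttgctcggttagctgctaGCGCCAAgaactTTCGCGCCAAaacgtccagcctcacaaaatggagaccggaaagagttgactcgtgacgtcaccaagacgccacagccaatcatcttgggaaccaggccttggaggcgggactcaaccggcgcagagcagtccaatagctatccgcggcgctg
Mcm6, chr1:128359706-128359955, minus strand: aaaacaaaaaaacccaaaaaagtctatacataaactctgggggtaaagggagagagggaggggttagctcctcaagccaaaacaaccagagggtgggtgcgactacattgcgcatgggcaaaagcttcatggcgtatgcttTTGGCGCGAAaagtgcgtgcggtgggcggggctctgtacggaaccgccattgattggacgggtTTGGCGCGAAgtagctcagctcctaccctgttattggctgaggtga
The other 4 are those of the G2/M members with the highest correlation with their own list among those that hold a CHR, in capitals (TTCAAA on the other strand). Ube2c encodes the ubiquitin-conjugating enzyme of the anaphase-promoting complex, Cdk1 the mitotic kinase, Prc1 a bundler of spindle microtubules and Top2a the topoisomerase that untangles sister chromatids.
Ube2c, chr2:164769679-164769928, plus strand: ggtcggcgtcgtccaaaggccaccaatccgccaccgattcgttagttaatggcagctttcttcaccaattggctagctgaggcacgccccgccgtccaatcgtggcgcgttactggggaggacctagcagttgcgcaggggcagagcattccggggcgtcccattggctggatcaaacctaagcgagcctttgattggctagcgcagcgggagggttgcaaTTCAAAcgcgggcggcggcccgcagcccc
Cdk1, chr10:69352913-69353162, minus strand: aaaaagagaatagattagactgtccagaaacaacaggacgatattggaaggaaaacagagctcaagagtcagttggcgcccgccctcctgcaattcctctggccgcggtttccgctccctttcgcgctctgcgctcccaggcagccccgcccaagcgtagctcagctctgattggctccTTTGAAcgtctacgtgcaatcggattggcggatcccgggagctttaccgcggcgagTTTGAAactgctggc
Prc1, chr7:80294226-80294475, plus strand: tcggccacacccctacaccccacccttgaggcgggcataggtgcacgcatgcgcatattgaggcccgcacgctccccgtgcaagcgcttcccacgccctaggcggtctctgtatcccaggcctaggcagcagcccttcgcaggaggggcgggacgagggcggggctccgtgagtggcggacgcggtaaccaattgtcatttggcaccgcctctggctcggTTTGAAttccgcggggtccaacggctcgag
Top2a, chr11:99024190-99024439, minus strand: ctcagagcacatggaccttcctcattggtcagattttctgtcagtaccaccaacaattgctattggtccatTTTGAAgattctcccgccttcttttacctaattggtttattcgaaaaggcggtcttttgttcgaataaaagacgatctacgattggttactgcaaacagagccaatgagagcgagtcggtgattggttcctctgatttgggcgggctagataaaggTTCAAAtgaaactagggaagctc
A member was counted if any of its promoters held the motif, and 3 members had more than 1 promoter. The shares over all promoters count each promoter singly, so the 2 are not fully alike. A CHR was present in 7 of the 17 G2/M members with a promoter (41.2%), in 1 of 13 S phase members and in 15.99% of all 32851 promoters. A CCAAT box was present in 15 of the 17 G2/M members (88.2%), in 9 of 13 S phase members (69.2%) and in 33.8% of all promoters. The E2F core was present in 2 of 13 S phase members, in 4 of 17 G2/M members (Mki67, Cdk1, Hmmr and Ccnb1) and in 5.19% of all promoters. Cdk1 and Mki67 held both an E2F core and a CHR. A CCAAT box can overlap an E2F core or lie beside a CHR, and none of the 3 motifs was required to be free of the others. These matches describe the letters only.

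Each cell held between 101895 and 14159574 counted reads, with a median of 1218380, and the libraries fell into 2 sets that the labels do not name. They were parted by 8 genes (Foxe1, Dusp15, Kcnk12, Pou3f3, Six3, Vax1, Sox3 and Hoxd13): every cell of set 1 had reads in all 8, and no cell of set 2 in more than 4. Of the E6.75 wild type, 83 cells lay in set 1, as did 50.7% of the E7.25 cells and all 85 knockout cells. The other 89 cells of E6.75 and 49.3% of those of E7.25 made up set 2. No cell of set 2 passed 3 counts per 1e6 reads (CPM) summed over 3 Y-linked genes, against 57.8% of cells in set 1. Knockout and wild type were therefore compared within set 1, and correlations were computed within 5 strata, which are the groups divided by library set. Mesp1 summed to 405.8 CPM in the set 1 wild type cells at E6.75, 7.40 in the knockout cells and 531 in wild type cells at E7.25. Markers of visceral endoderm summed to between 0.52 and 7.17 CPM in every stratum. Each group counts as 1 sample, since no embryo is named, so no p-value is given. Intervals of ratios join opposite ends of the exact Poisson intervals at 95% of the 2 groups, and are thus wider than a 95% interval of the ratio. They cover the counting of reads only. Those of shares of cells are exact binomial intervals at 95% that cover the counting of cells only.

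The members were read in most cells. With every cell thinned at random to 100000 reads, so that cells of different depth could be compared, the member read in the smallest share was Prc1, in 72.7% of wild type cells at E6.75, 76.5% of knockout cells and 69.8% at E7.25. Divided by the length of their exons, summed reads over all 598 cells were highest for Cdc20, the activator of the anaphase-promoting complex, at 410.0 CPM per kilobase. Rrm2, the regulated subunit of ribonucleotide reductase, followed at 245.1, and Ccnb2, a B cyclin, at 224.3. The lowest were Prc1 at 10.4, Cenpf, a kinetochore protein, at 10.7, and Cenpe, the kinetochore motor, at 12.2 CPM per kilobase. Among the G1 and G1/S cyclins, Ccne1 stood at 150.3 CPM per kilobase, against 44.5 for Ccnd1, 32.4 for Ccnd2, 22.7 for Ccne2 and 16.3 for Ccnd3. By this measure Ccne1 stood above all 3 D cyclins and Ccne2 between Ccnd2 and Ccnd3. The length used is that of all annotated exons of a gene merged, which can exceed the length of a transcript. Without that division the order changed: Ccne1 stood at 400.1 CPM, Ccnd2 at 304.7, Ccnd1 at 209.7, Ccnd3 at 143.5 and Ccne2 lowest at 79.3.

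Across cells, S phase and G2/M transcripts varied in opposite directions in every stratum. The S score of a cell is the mean over the 15 S phase genes of log2(CPM + 1) at 100000 reads, each gene centred over all cells, and the G2/M score is the same over the 20 G2/M genes. The correlation across cells (Spearman rho) between the scores was -0.43 in set 1 and -0.73 in set 2 at E6.75, -0.42 in the knockout, and -0.59 and -0.72 in sets 1 and 2 at E7.25. The cells of a stratum share a stage, a genotype and a library type, and the points are not replicates. Both scores come from the same 100000 reads of a cell. The G2/M score also went with the number of genes read per thinned cell (rho between 0.37 and 0.63), and the S score did so less evenly (between -0.22 and 0.29). With the number of genes read held constant, the median rho between the scores over the 5 strata was -0.60, beside -0.59 without that step.

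**Figure D1:**
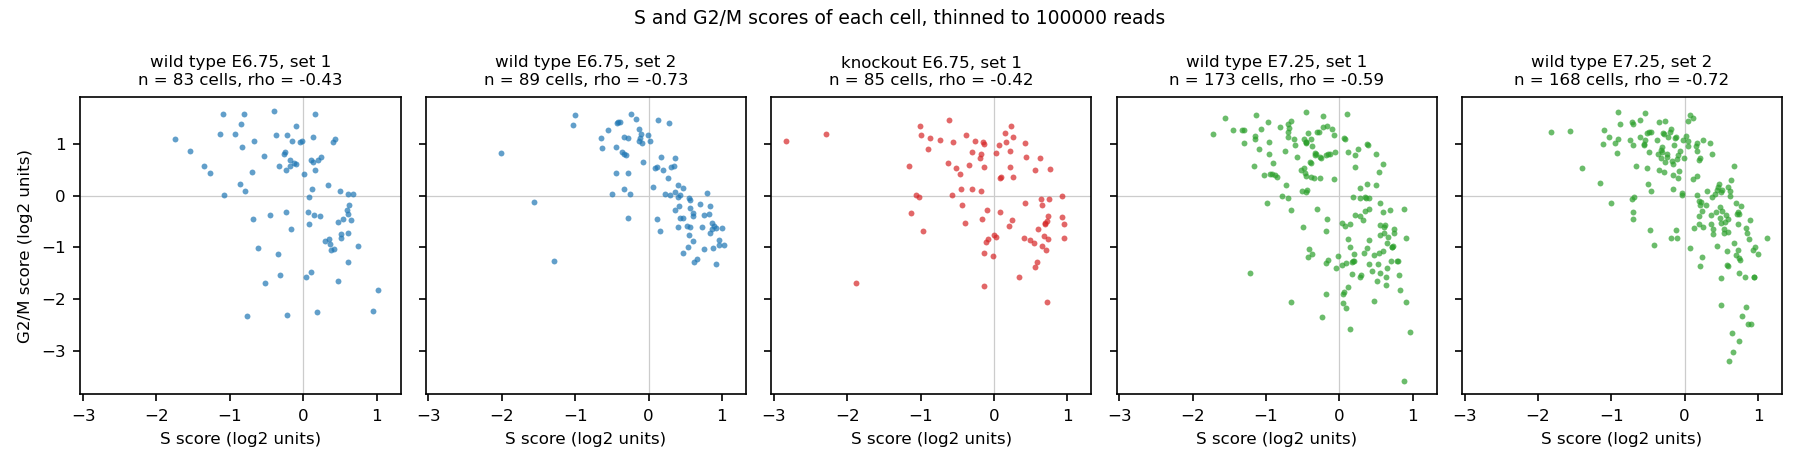
G2/M score (vertical, log2 units) against S score (horizontal, log2 units) of each cell, 1 panel per stratum. In every panel the cells run from high G2/M with low S at the top left to low G2/M with high S at the bottom right, with rho between -0.73 and -0.42.

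The scores of the groups overlapped. The S score ran from -2.02 through a median of 0.13 to 1.03 in E6.75 wild type cells. In the knockout it ran from -2.84 through 0.03 to 0.96, and at E7.25 from -1.82 through 0.06 to 1.13. The 3 ranges overlapped over most of their length. The G2/M score ran from -2.32 through 0.05 to 1.64 in E6.75 wild type cells, from -2.06 through 0.01 to 1.46 in the knockout and from -3.57 through 0.08 to 1.62 at E7.25. The mean S score was -0.09 ± 0.60 (SD over 83 cells) in set 1 wild type cells and -0.04 ± 0.72 (SD over 85 cells) in the knockout. The mean G2/M score in the same cells was 0.0024 ± 1.03 and 0.04 ± 0.87. Both differences were small beside the spread between cells.

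The cells were also counted by ranges of the 2 scores, which are not phases. The G2/M score was the higher of the 2 and above 0 in 47.7% of wild type cells at E6.75 (exact binomial interval 40.02 to 55.4%), in 48.2% of knockout cells (41 of 85, 37.3 to 59.3%) and in 46.9% at E7.25 (41.5 to 52.4%). The S score was the higher and above 0 in 44.8%, 36.5% and 44.6%. In the wild type cells of set 1 at E6.75, where the knockout cells lie, that share was 38.6%. Both scores lay at or below 0 in 7.56% of wild type cells at E6.75, 15.3% of knockout cells (13 of 85) and 8.50% at E7.25. Within set 1 alone the wild type share with both scores low at E6.75 was 12.0% (10 of 83, interval 5.93 to 21.04%), and the knockout's interval was 8.40 to 24.7%. Some cells had a score within 0.2 of 0, or 2 scores within 0.2 of each other with the higher above 0. They made up between 32.3% and 42.4% of each group, and not all of them lie near a boundary of the ranges. The shares above move with where a boundary is put, by an amount that was not computed.

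The S phase genes differed in how closely they followed their own list. A gene's correlation with the score of the other members of its list, as the median over the 5 strata, was highest for Ung, the uracil DNA glycosylase, at 0.60. Mcm5 followed at 0.57, Rrm2 at 0.55, Slbp, which binds the stem-loop of histone mRNA, at 0.55, Mcm3 at 0.54 and Mcm4 at 0.50. Cdc6, a loader of the helicase, reached 0.48 and Pcna, the sliding clamp of the polymerases, 0.45. Rrm1, the partner of Rrm2 in ribonucleotide reductase, reached 0.21 and Tyms, thymidylate synthase, 0.07. The 2 subunits of 1 enzyme thus stood apart, with Rrm2 near the top of the list and Rrm1 near its end. All 15 S phase genes correlated more with the S score than with the G2/M score in 5 of 5 strata. A median rho of 0.4 or more with the S score was reached by 0.212% of the 8962 genes with a read in at least 20% of the thinned cells of every stratum, and one of -0.2 or less by 1.85%.

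Ung shows the pattern in single cells. In wild type cells at E6.75 its level ran from 0 through a median of 122.4 to 678 CPM, in the knockout from 0 through 134.1 to 469, and at E7.25 from 0 through 110.7 to 808. Every group thus held cells without a read of Ung, and the ranges overlapped. Its correlation with Ube2c was -0.55, the lowest of all pairs of members, with stratum values from -0.64 to -0.40.

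The G2/M genes differed among themselves as well. Ube2c had the highest correlation with the other members of the list, at 0.79, followed by Aurka, the kinase of the spindle poles, at 0.78, Ccnb1, the main mitotic cyclin, at 0.77, Cdk1 at 0.75 and Plk1, a kinase of mitotic entry, at 0.74. Ube2c ran from 8.40 through 305.6 to 1282 CPM in E6.75 wild type cells, from 31.5 through 410 to 1209 in the knockout and from 5.25 through 286.7 to 1481 at E7.25. The groups overlapped over nearly the whole range. Plk1 and Ube2c were the closest pair of all members, with a median rho of 0.72 (0.53 to 0.77). Spindle genes lay in the middle, with Tpx2, a spindle assembly factor, at 0.66, Prc1 at 0.64, Nusap1 at 0.63 and Hmmr at 0.56.

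At the loose end, Ccnb2 reached 0.05, Bub1, a kinase of the spindle checkpoint, 0.15, Birc5 (survivin, of the chromosomal passenger complex) 0.22, Ccna2 0.34, Cdc20 0.39 and Mki67, the gene of the Ki-67 proliferation antigen, 0.39. The 2 B cyclins therefore differed: Ccnb1 correlated with the G2/M list at 0.66 to 0.84 in the 5 strata and Ccnb2 at -0.06 to 0.41, while Ccnb2 had a read in every thinned cell of the 3 groups. A median rho of 0.4 or more with the G2/M score was reached by 0.681% of the 8962 genes. Of the 20 members, 18 correlated more with the G2/M score than with the S score in 5 of 5 strata, and Ccna2 and Ccnb2 did not, with 1 and 2 strata the other way.

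**Figure D2:**
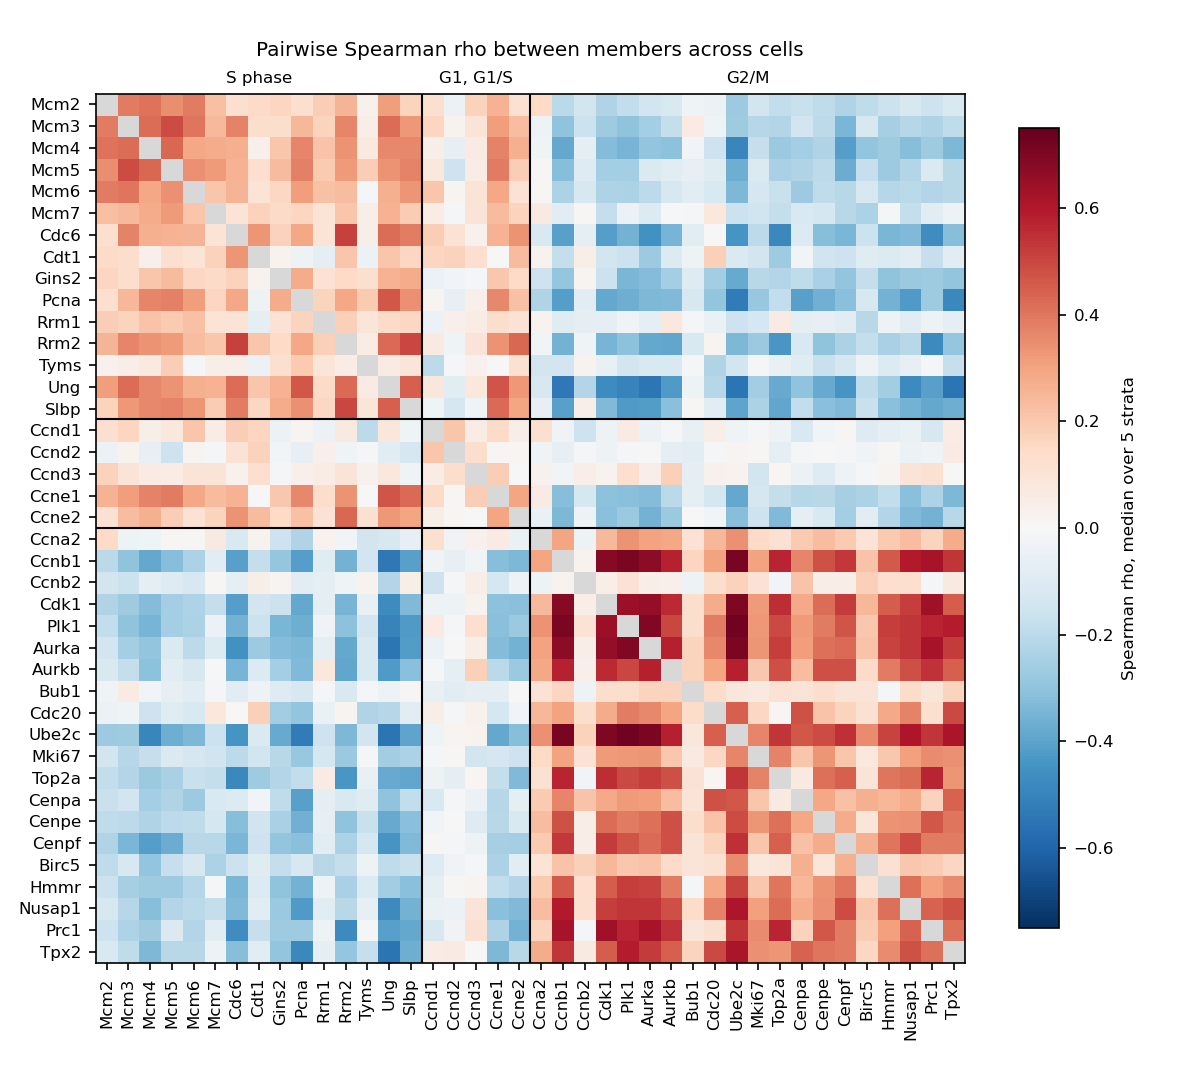
Spearman rho across cells for each pair of the 40 members, as the median over 5 strata (colour). Black lines part the S phase, G1 and G1/S, and G2/M genes: the S phase block (median 0.22) and the G2/M block (median 0.32) are mostly positive, the block between them is mostly negative (median -0.19), and Ccnd1, Ccnd2, Ccnd3, Tyms, Bub1 and Ccnb2 form pale rows.

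Pairs of members gave the same picture gene by gene. All but 4 of the pairs within the S phase list had a positive median rho, and so had all but 5 of the 190 pairs within the G2/M list. Of the 300 pairs that join the lists, 20 were positive. The E cyclins followed the S score: Ccne1 correlated with the S score at 0.52 and with the G2/M score at -0.36, and Ccne2 at 0.46 and -0.28. The D cyclins did not follow either score closely, with 0.12 and -0.03 for Ccnd1, -0.03 and -0.01 for Ccnd2, and 0.09 and 0.03 for Ccnd3.

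Other genes with the same pattern were found by ranking genes on none of the lists by their median rho with each score. Among the nearest to the S score were Pcna-ps2 at 0.52, Rpa2, a subunit of the single-strand binding protein, at 0.48, Chaf1b at 0.47 and Chaf1a at 0.38, which encode subunits of the chromatin assembly factor, and Rfc3, of the clamp loader, at 0.38. Among the nearest to the G2/M score were Arl6ip1 at 0.69, Fam83d at 0.66, Jpt1 at 0.65, Plk-ps1 at 0.63 and Ccnf at 0.59. Arl6ip1 was also the lowest of these genes, which are on none of the lists, with the S score, at -0.49. Pcna-ps2 and Plk-ps1 are processed pseudogenes of Pcna and Plk1, and reads of near-identical copies can be split between them: Pcna-ps2 held 109.5% as many reads as Pcna, Ccnd3-ps 15.3% as many as Ccnd3, Ccnb1-ps 10.2% as many as Ccnb1 and Plk-ps1 7.16% as many as Plk1. The counts of these 4 members are uncertain to that degree.

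Of 60 further cell cycle genes on a list of regulators, 12 are named here because their median rho with a score passed 0.3 in size. Bub3, of the spindle checkpoint, correlated with the G2/M score at 0.66 and Fzr1, the G1 activator of the anaphase-promoting complex, at 0.62. Dbf4, the activating subunit of the kinase that fires origins, went with the G2/M score at 0.43 and with the S score at -0.22. Mcm10 correlated with the S score at 0.45, Cdc45 at 0.41, and Orc6, of the origin recognition complex, at 0.31, with -0.43 for the G2/M score. Mybl2, the gene of B-Myb, and E2f8, a repressing E2F, went with S at 0.37 and 0.36. Ttk, Bub1b, Cdkn2d and Cdc25c went with G2/M at 0.36, 0.35, 0.35 and 0.31. By role, 5 of 14 genes of origin licensing and firing reached 0.2 or more with the S score and 1 with the G2/M score. Of 10 checkpoint and anaphase genes, 5 reached it with the G2/M score and 0 with the S score. At -0.2 or less stood 4 of the 14 with the G2/M score and 1 with the S score. Of the 10, 3 did so with the S score and 0 with the G2/M score. Over all 8962 genes, 2.96% reached 0.2 or more with the S score and 3.05% with the G2/M score. The shares at -0.2 or less were 1.85% and 0.859%.

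Between knockout and wild type cells at E6.75, no member differed by more than 1.5-fold within library set 1. By that measure, 8.46% of 10588 genes of at least 5 CPM were higher and 13.9% lower. No share was computed for genes at the members' own levels, so whether the members stand out is unknown. Ratios are log2 of summed CPM plus 1. The 15 S phase genes had a median ratio of 0.13 (11 higher, 4 lower, from -0.20 to 0.43) and the 20 G2/M genes of -0.11 (7 higher, 13 lower, from -0.55 to 0.41), beside -0.03 over all genes. The 5 G1 and G1/S cyclins had a median of -0.02. By role, the medians were 0.13 for licensing and fork genes, 0.15 for nucleotide supply, repair and histone mRNA, -0.01 for cyclins A and B with Cdk1, 0.0034 for the mitotic kinases and the anaphase-promoting complex, -0.14 for chromosome and kinetochore genes and -0.28 for the 4 spindle genes. In the same cells, the summed level of 8 nascent mesoderm genes was 1461 CPM in wild type and 350.7 in knockout cells. That list includes Mesp1, itself far lower in the knockout cells. Epiblast and pluripotency genes summed to 1367 CPM in wild type and 2185 in knockout cells, and haemato-endothelial genes to 324.6 and 39.8. Summed levels of lineage genes thus differed between the genotypes, and their part in the members' ratios was not tested.

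The largest difference was in Hmmr, a microtubule-associated protein of the spindle. It ran from 0 through a median of 54.6 to 433 CPM in set 1 wild type cells and from 0 through 49.5 to 405 CPM in knockout cells, so the cells of the groups overlapped fully. Summed over cells it stood at 83.9 and 56.97 CPM, a log2 ratio of -0.55 (-0.62 to -0.48). With every cell weighted equally the ratio was -0.02, and without the deepest 10% of cells it was also -0.02. Nusap1 stood at 153.4 CPM in wild type and 111.4 in knockout cells (-0.46), Ccnb2 at 404 and 307.5 (-0.39) and Mki67 at 120.1 and 92.4 (-0.37). In the other direction, Ung stood at 129.1 CPM in wild type and 174.3 in knockout cells (0.43), Plk1 at 343.9 and 458 (0.41) and Ccnd1 at 134.9 and 169.3 (0.33). For Ccnb2 and Plk1 the medians of single cells, 348.7 against 294.4 CPM and 278.7 against 311.2 CPM, lay on the same sides as the sums. For Mki67 they did not, with 93.4 CPM in wild type and 94.8 in knockout cells, and with equal weights its ratio was -0.03. The ratio of Ccnd1 turned to -0.24 with equal weights and to -0.33 without the deepest 10% of cells. Under the same 2 settings Ung stood at 0.36 and 0.47, Plk1 at 0.26 and 0.22, Nusap1 at -0.27 and -0.36 and Ccnb2 at -0.40 and -0.36.

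The sign of many of these ratios depended on which set 1 cells were taken. The 49 knockout and 53 wild type cells that had Y-linked reads, and the 36 and 30 cells that had none or few, gave ratios of opposite sign for 23 of the 40 members. The same share over all genes was not computed, so this count is not shown to be particular to the members. Ccnd1 was the extreme. Among cells with Y-linked reads it ran from 0 through 59.7 to 405 CPM in wild type and from 0 through 99.6 to 693 in knockout cells, and summed to 110.1 and 203.7 CPM (log2 ratio 0.88). Among cells without, it ran from 8.71 through 170.3 to 585.1 CPM in wild type and from 0 through 67.02 to 522 in knockout cells, and summed to 180.1 and 104.05 CPM (-0.79). In the cells with Y-linked reads, 1 member was higher (Ccnd1) and 2 lower (Hmmr -0.61, Nusap1 -0.69) by more than 1.5-fold, beside 11.5% and 20.5% of 10621 genes. In the cells without, 3 were higher (Plk1 0.77, Ccne2 0.71, Aurka 0.65) and 1 lower (Ccnd1), beside 18.6% and 17.6% of 10749 genes. The labels name no embryo, so how many embryos each such share of cells holds is unknown, and the part of single embryos in these ratios was not tested.

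With the wild type cells of both sets as the reference, 4 members passed 1.5-fold, beside 6.14% of 10704 genes higher and 19.6% lower. They were Aurka (0.67), Mki67 (-0.75), Hmmr (-0.63) and Cenpe (-0.61). Within set 1 the same 4 stood at 0.29, -0.37, -0.55 and -0.15. Library set and genotype are mixed in the comparison of all cells, since knockout cells are found in set 1 alone.

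**Figure D3:**
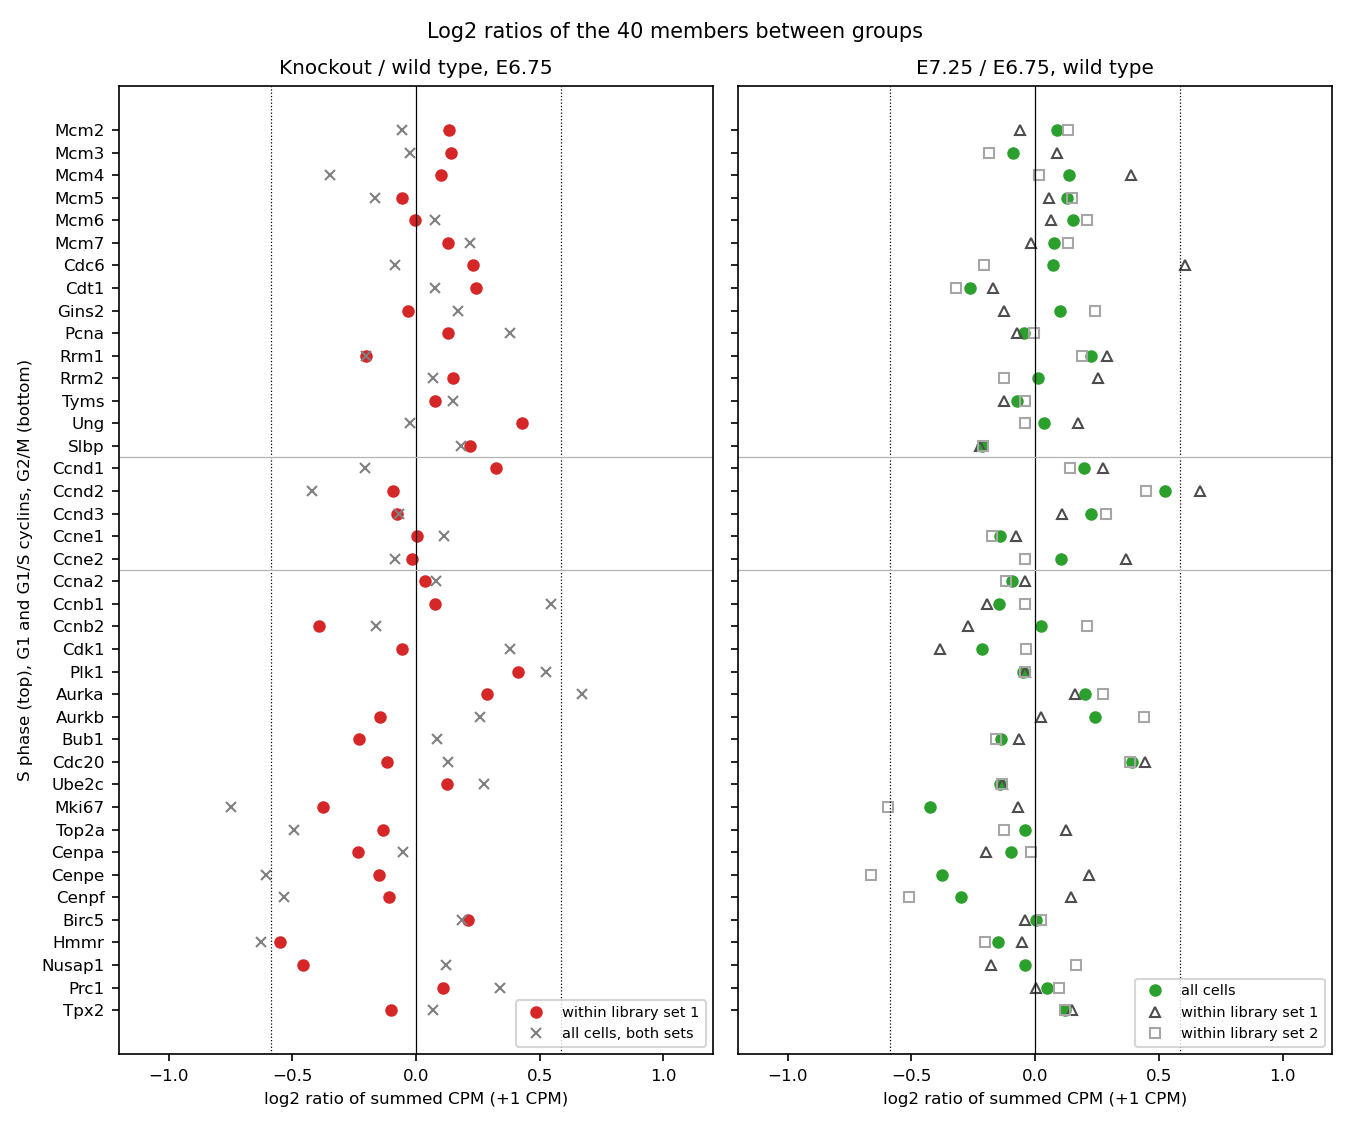
Log2 ratio of summed CPM (plus 1 CPM, horizontal) of each member, for knockout against wild type at E6.75 (left) and E7.25 against E6.75 wild type (right). Filled points are the comparisons reported, other symbols the same ratio over other cells, and dotted lines mark 1.5-fold: no filled point passes them, and Mki67, Cenpe, Hmmr and Aurka do so on the left when both library sets are pooled.

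The members also differed between the library sets themselves, in cells of the same stage and genotype. In wild type cells at E6.75, 5 members were higher in set 1 than in set 2 by more than 1.5-fold and 5 lower, beside 10.7% and 21.2% of 10797 genes. At E7.25, 3 were higher and 1 lower, beside 6.21% and 17.1% of 10945 genes. In set 1 against set 2, Nusap1 was 153.4 against 72.3 CPM at E6.75 and 135.7 against 81.2 at E7.25. Ccnb1 was 335.03 against 186.96 CPM and 292.3 against 181.5, and Ccnd1, in the other direction, 134.9 against 231.3 and 163.5 against 255.4. Across the 40 members, the ratio went with exon length, with rho of -0.46 at E6.75 and -0.33 at E7.25, beside -0.26 and -0.15 over all genes. The long transcripts of Cenpf and Mki67 were lower in set 1 at E6.75 (-0.62 and -0.56) and near equal at E7.25 (0.03 and -0.03). The median number of genes read at 100000 reads was 6911 and 7101 in set 1 and 8336 and 8267.5 in set 2.

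Between E6.75 and E7.25 in wild type cells, again no member passed 1.5-fold, beside 10.1% of 10918 genes higher and 4.94% lower at E7.25. Here too, no share was computed for genes at the members' own levels. The S phase genes had a median log2 ratio of 0.07 (10 higher, 5 lower, from -0.26 to 0.22), the G2/M genes of -0.07 (7 higher, 13 lower, from -0.42 to 0.39) and the G1 and G1/S cyclins of 0.20 (4 higher, 1 lower), beside 0.03 over all genes. All 3 D cyclins were higher at E7.25, and so they were within each library set. Cdc20 was higher in both sets, at 839 against 639 CPM over all cells (0.39; 0.44 in set 1 and 0.38 in set 2). Slbp was lower in both sets (-0.21 over all cells; -0.22 in set 1 and -0.21 in set 2). Mki67 (-0.42 over all cells) and Cenpe (-0.38) differed mainly within set 2, at -0.60 and -0.66, with -0.07 and 0.22 in set 1. Cdc6 stood at 0.61 in set 1 and -0.21 in set 2. For Mki67, Cenpe and Cdc6 the 2 sets thus gave different values.

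Ccnd2 had the largest ratio of all members between the stages. It encodes cyclin D2 and lies at chr6:127125162-127152193 on the minus strand (GRCm38, GENCODE M21). Its level ran from 0.36 through a median of 171.4 to 1063 CPM in wild type cells of E6.75 and from 0 through 277.3 to 1657 CPM in those of E7.25. The ranges overlapped, with the upper end extended at E7.25. Summed, it stood at 247.2 and 356.0 CPM, a log2 ratio of 0.52 (0.51 to 0.54), with 0.67 in set 1 and 0.45 in set 2. In set 1 it passed 1.5-fold, together with Cdc6, beside 14.5% of 10730 genes higher and 9.23% lower. In set 2, Mki67 and Cenpe passed it as lower, beside 11.4% of 10986 genes higher and 6.32% lower. Within set 1, Ccnd2 was at 196.6 CPM in wild type and 184.2 in knockout cells at E6.75 (-0.09). That ratio had no stable sign: it was 0.16 with equal weights, 0.17 without the deepest 10% of cells, 0.14 and -0.32 in cells with and without Y-linked reads, and -0.42 over both sets.

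Among the 60 further cell cycle genes, 58 were measured at 1 CPM or more in each comparison. At E7.25, 4 were higher and 1 lower by more than 1.5-fold, beside 10.1% and 4.94% of genes of at least 5 CPM, so these counts do not stand out. The 58 were kept at a lower level than those genes, so the 2 are not fully alike. Cdkn1c, the CDK inhibitor p57, stood at 26.5 CPM at E6.75 and 72.5 at E7.25 (1.42; 1.29 in set 1 and 1.42 in set 2). Its cells ran from 0 through 14.46 to 272.97 CPM and from 0 through 31.3 to 852 CPM. Cdk6, a kinase partner of D cyclins, stood at 52.8 and 88.1 CPM (0.73), and Mycn at 135.96 and 211.6 (0.63), while Myc was lower, at 141.1 and 83.3 (-0.75). The fourth that was higher, Cdkn2b, was below 2 CPM at both stages. The 2 Myc genes thus differed in opposite directions.

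Between knockout and wild type cells in set 1, 3 of the 58 were higher and 5 lower by more than 1.5-fold. Beside 8.46% and 13.9% of genes of at least 5 CPM, these counts do not stand out either. Lin37, a subunit of the MuvB core, stood at 17.7 CPM in wild type and 33.1 in knockout cells (0.87), Espl1 (separase) at 29.1 and 48.7 (0.72), and Cdkn1b (p27) at 6.55 and 10.6 (0.62). Gins3, of the replicative helicase, stood at 58.6 and 37.4 CPM (-0.64), E2f7, a repressing E2F, at 31.1 and 20.3 (-0.59) and Cdkn1c at 18.4 and 10.8 (-0.71). E2f2 and Cdkn2c, also lower, were below 4 CPM in both. Cdkn1c was thus lower in the knockout and higher at E7.25, both against E6.75 wild type cells. The 2 comparisons share the E6.75 wild type cells of set 1. Unlike those of the members, the knockout ratios of these regulators were not recomputed with equal weights, without the deepest cells or by Y-linked reads.

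Scores were made in the same way for 9 lists of lineage genes, and none of the 18 pairs of a lineage list with the S or the G2/M score reached a median rho of 0.2 in size. The largest were cardiac progenitor genes with S at -0.15 (negative in 4 of 5 strata), extraembryonic mesoderm genes with G2/M at -0.15 (negative in 5 of 5, from -0.26 to -0.07) and epiblast and pluripotency genes with S at 0.14 (positive in 4 of 5). Single strata went further: primitive streak genes stood at 0.35 with G2/M in set 1 wild type cells of E6.75 and at -0.11 in set 1 of E7.25. Of 49 lineage genes read in enough cells, 1 passed 0.2 in size: Hand2, a factor of heart and extraembryonic mesoderm, at -0.24 with G2/M, positive in 1 of 5 strata. Foxf1, of extraembryonic and lateral mesoderm, stood at -0.20 with G2/M (-0.47 to -0.11), and Pou5f1, the pluripotency factor, at 0.18 with S (positive in 5 of 5). In sparse counts such values are weak, and they are given as a description. Of the lists, definitive endoderm and axial had 0 of 8 genes read in enough cells. The haemato-endothelial list had 3 of 11, and paraxial and presomitic mesoderm 3 of 8. A low rho of these list scores therefore does not show a lack of correlation. Over all 8962 genes, 2.96% had a median rho of 0.2 or more with the S score and 3.05% with the G2/M score, and 0.859% had -0.2 or less with G2/M.

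**Figure D4:**
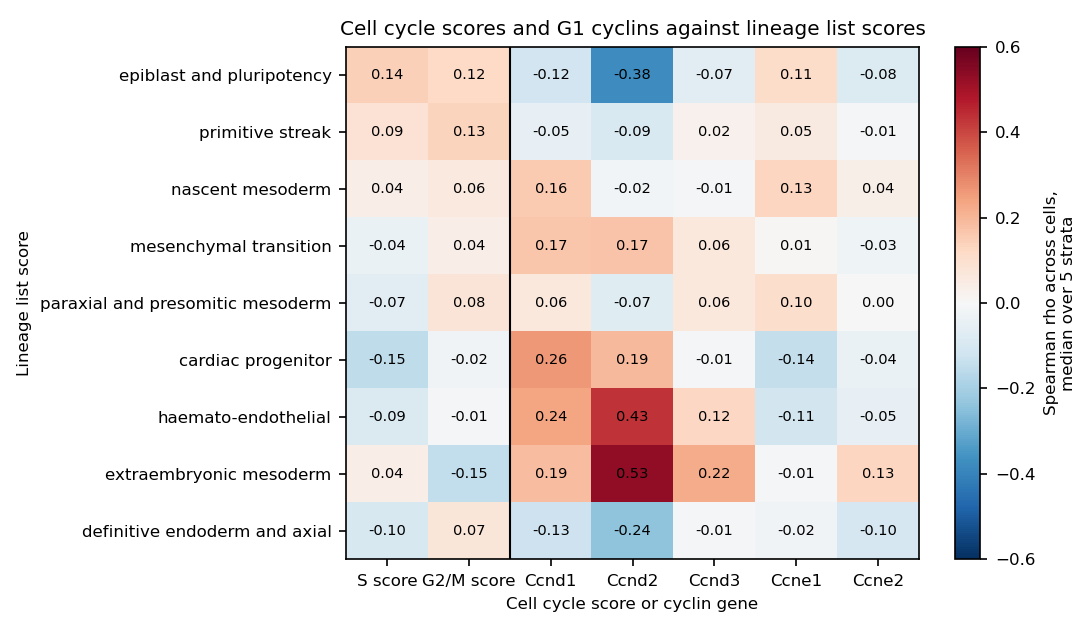
Median Spearman rho over 5 strata (colour and printed number) between each lineage list score (rows) and the S score, the G2/M score and the 5 G1 and G1/S cyclins (columns). The columns of the 2 scores lie between -0.15 and 0.14, and Ccnd2 reaches 0.53 with extraembryonic mesoderm, 0.43 with haemato-endothelial genes and -0.38 with epiblast genes.

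Each of the 40 members was also set against the 9 lineage lists, and 8 members had a median rho of 0.2 or more in size with at least 1 list. Of the 360 pairs of a member and a list, 14 reached that size. The share of all genes with at least 1 such list was not computed, so whether 8 of 40 stands out is unknown. That survey of all members was added after the values of the cyclins had been seen. The largest was that of Ccnd2 with extraembryonic mesoderm, at 0.53. The next were Mcm5 with epiblast genes at 0.26, Ccnd1 with cardiac progenitor genes at 0.26, Cdc20 with extraembryonic mesoderm at -0.25 and Top2a with primitive streak genes at 0.24. Ccnd2 correlated with the extraembryonic mesoderm score at 0.50 and 0.53 in wild type sets 1 and 2 at E6.75, at 0.59 and 0.58 in sets 1 and 2 at E7.25, and at 0.04 in the knockout. That list holds Hand1, Bmp4, Tbx4, Ahnak, Tdo2, Foxf1, Msx1, Msx2 and Pmp22, genes taken here to mark the mesoderm that builds the allantois, amnion and yolk sac. Ccnd2 had the third highest median rho with this score among 8958 genes outside the list, behind Phlda2 at 0.63 and Tbx3 at 0.60, and 1.09% of those genes reached 0.2, 0.1% reached 0.4 and 0.067% reached 0.5. By single gene, it correlated with Hand1 at 0.56, with Pmp22 at 0.52, with Msx2 at 0.49 and with Bmp4 at 0.28. Without Hand1 in the list the median was 0.50.

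**Figure D5:**
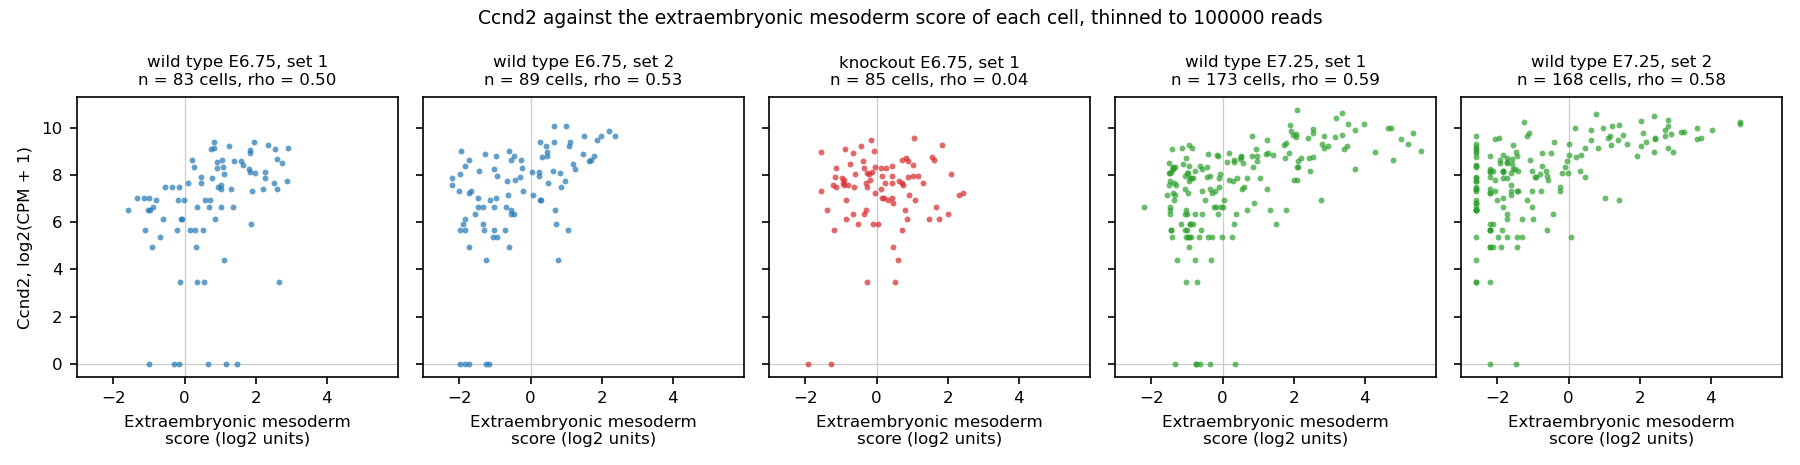
Ccnd2 (vertical, log2(CPM + 1)) against the extraembryonic mesoderm score (horizontal, log2 units) of each cell, 1 panel per stratum, at 100000 reads per cell. In the 4 wild type panels cells with a high score have high Ccnd2 (rho 0.50 to 0.59), and in the knockout panel rho is 0.04.

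Its correlations with other lists differed in direction. With the haemato-endothelial list its rho was 0.54, 0.42, 0.50 and 0.43 in the 4 wild type strata and -0.04 in the knockout, and with Kdr, the VEGF receptor of blood and vessel precursors, the median was 0.38. With the epiblast and pluripotency list it was -0.33, -0.42, -0.46 and -0.38 in wild type and 0.14 in the knockout, with Otx2 lowest at -0.42. With the list of paraxial and presomitic mesoderm it was -0.02 and 0.24 at E6.75, -0.42 and -0.28 at E7.25 and -0.07 in the knockout. With nascent mesoderm it was -0.01 and 0.17 at E6.75, -0.32 and -0.10 at E7.25 and -0.02 in the knockout. Of the 49 lineage genes, 10 reached 0.2 or more with Ccnd2 and 5 reached -0.2 or less, beside 0.82% and 0.332% of 10240 genes with a read in at least 20% of thinned cells of 3 or more strata. The counts at 0.2 or more were 4 for Ccnd1, 3 for Ccnd3, 2 for Ccne1 and 0 for Ccne2, and none of these 4 cyclins reached -0.2 with any. Shares over all genes were computed for Ccnd2 alone, so the counts of these 4 cyclins have no such share beside them. Every set 1 cell at E6.75 had reads of the extraembryonic mesoderm list, and its summed level was 1754 CPM in wild type and 1203 in knockout cells. In wild type cells of set 2 that level was 446.6 CPM at E6.75. At E7.25 it was 1957 CPM in set 1 and 454.2 in set 2. The summed level of this list thus differed by library set. Hand1 had a read in 17.6% of thinned knockout cells, against 55.4% of set 1 wild type cells, and the extraembryonic mesoderm score had an SD of 0.98 against 1.14. At E7.25 that SD was 1.78 and 1.88 in sets 1 and 2. The difference in rho between knockout and wild type was not tested, since each group is 1 sample.

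Ccnd1 had its largest median with cardiac progenitor genes, at 0.26, with 0.26 and 0.34 at E6.75, -0.0036 and 0.26 at E7.25 and -0.36 in the knockout. Its rho with the haemato-endothelial list was 0.24, 0.26, 0.19 and 0.38 in the wild type strata and -0.25 in the knockout, and with nascent mesoderm genes 0.16, 0.20, 0.14 and 0.23 against -0.38. Ccnd3 reached 0.22 with extraembryonic mesoderm (positive in the 4 wild type strata, -0.14 in the knockout). The E cyclins stayed closer to 0: the largest median of Ccne1 with any list was -0.14, for cardiac progenitor genes, and of Ccne2 0.13, for extraembryonic mesoderm. Among these 5 cyclins, the 3 D cyclins each had a list past 0.2 in size and the 2 E cyclins had none. How often genes at large have such a list was not computed.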

How the data were processed

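Raw read counts per gene were deposited by the authors as 1 table of 598 cells; per the submitters' processing notes, GSNAP, HTSeq 0.5.3p3 and mm10 were used; for mapping settings, annotation and strand, the entry is not given in the sources used here. No filter on cells was applied here. Of 40912 gene IDs, 40254 matched a symbol in GENCODE M21. The members and lists were chosen with earlier results of these data known.

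Levels are summed reads of a group scaled to counts per 1e6 reads (CPM), and ratios add 1 CPM. Shares of all genes past a fold count those of at least 5 CPM in either group and were not matched to the members' levels. A cell with reads in at least 5 of the 8 genes was put in library set 1. For scores and correlations every cell was thinned to 100000 reads, with another draw as an alternative. Genes were named by a rule: any member; at most 3 regulators of at least 5 CPM per role and 3 lineage genes per list, by ratio or rho; and the 8 highest and 4 lowest other genes for each score, in part printed. Regulators beyond 3 per role or below 5 CPM, lineage genes named with a cyclin, and genes near the extraembryonic mesoderm score were chosen after their values were seen. No doublets were called. Scaling factors of edgeR 4.0.16 (TMM) and DESeq2 1.42.0 served as alternatives, with no count test. Python 3.11.15, numpy 2.4.6 and scipy 1.17.1 were used, and the scripts were tested on simulated data.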

Additional observations from a re-analysis of the deposited data

How the results depend on the processing

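No paired analysis was possible because the numbers in the labels count cells and pair nothing across groups. For knockout against wild type, the median log2 ratio of S phase genes (0.13) was 0.058 with every cell weighted equally, 0.16 with TMM and 0.18 with DESeq2 factors, 0.070 over both library sets, 0.089 in cells with and 0.19 in cells without Y-linked reads. That of G2/M genes (-0.11) was -0.026 with equal weights, -0.065 with DESeq2 factors, -0.068 without the deepest 10% of cells, 0.10 over both sets, -0.25 with and 0.18 without Y-linked reads, and so changed sign. The count of members past 1.5-fold (0) was 4 over both sets, 3 with and 4 without Y-linked reads. Between stages, the S phase median (0.07) was -0.011 with equal weights, 0.0029 without the deepest 10% of cells and -0.0029 in set 2. The G2/M median (-0.070) was -0.095 with TMM, -0.093 with DESeq2 factors, -0.10 without the deepest 10%, -0.094 without mitochondrial genes, -0.043 in set 1 and -0.039 in set 2. The count past 1.5-fold (0) was 1 with equal weights, 1 without the deepest 10% (Ccnd2 in each), 2 in set 1 and 2 in set 2. The rho of S and G2/M scores (-0.59) was -0.44 in set 1 cells with Y-linked reads, a split chosen after seeing the data; the 3 set 1 strata undivided gave -0.43. Lineage pairs past 0.2 (0) numbered 1 with genes scaled to SD 1, for epiblast genes with S. The cause of these moves was not tested. The 7 alternatives for Ccnd2 with extraembryonic mesoderm, also chosen after seeing the data, gave 0.49 to 0.57. Of single members' ratios under all alternatives, 457 moved by more than their counting interval, and fewer than that did not. Most of these values thus differed from the main ratio by more than the counting of reads covers. Reads per cell down to 101895 limit what can be said of genes read in few cells, such as Hand2.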

Other observations

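Values of a few cell cycle regulators against lineage lists belong to no comparison above, and the genes were chosen after their values were seen. Mycn correlated with the nascent mesoderm score in 5 of 5 strata, with a median of 0.35 (0.08 to 0.42), and with Fgf3 at 0.26 and Snai1 at 0.23. Cdkn1c correlated with the extraembryonic mesoderm score in 5 of 5 strata at a median of 0.30 (0.11 to 0.32), 0.16 in the knockout, and with Hand1 at 0.28. Cdk6, which was higher at E7.25 like Ccnd2 and Cdkn1c, had no list beyond 0.18, and Epcam was its lowest gene at -0.22. Of the genes nearest to the extraembryonic mesoderm score, Wls followed Ccnd2 at 0.51, with Bambi at 0.51 and Ppic at 0.51.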
